A study of Rattus norvegicus with 72 samples.

Results

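The genes described here are a set of interferon-induced antiviral genes, given as 35 symbols and looked up by symbol in a table of 30042 rat genes. Of these, 34 were found; Xaf1 was not analysed here. They were followed in lung tissue of 72 adult male Sprague-Dawley rats, an outbred strain, in 12 groups of 6 animals. Whole-body inhalation lasted 6 hours a day on 4 days, of either filtered air or diesel exhaust particles (DEP) as an aerosol of 200 or 1000 ug/m3. They were killed 1, 7 or 27 days after the last exposure, and RNA from a piece of lung was sequenced after ribosomal RNA was removed. Sample titles carry the letter H or L. All animals at 1000 ug/m3 carry H and all at 200 ug/m3 carry L, and each day has 6 air animals with H and 6 with L, called air H and air L here; the titles do not spell the letters out. Exposure was read against air animals of the same letter and day, and air H was read against air L.

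Interferons are secreted when a cell senses viral nucleic acid. Type I interferons bind a receptor whose kinases activate STAT2, which acts in a complex with IRF9 that binds the interferon-stimulated response element in target promoters. The targets include more sensors (Ifih1, Ddx58, Dhx58), the factor Irf7 that amplifies interferon production, enzymes and binding proteins that act on viral RNA (the OAS and IFIT families), GTPases and membrane proteins (Mx1, Mx2, Gbp2, Bst2), and the ubiquitin-like modifier Isg15 with its ligases and its protease Usp18. Airway and alveolar epithelium, macrophages and endothelium all respond to interferon, and a low level of these transcripts is present in uninfected lung.

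The promoters of the members are shown first. The members were listed as interferon-induced genes, which are targets through the response element named above. Its share among them is therefore not independent of that choice. RefSeq promoter sequences of build GRCr8, from 250 bases before to 50 after the annotated gene start, were matched by symbol for 24 of the 34 members. The core GAAA-NN-GAAA was searched on both strands, and 16 of the 24 (66.7%) held it, against 1312 of 33469 promoters of the same length (3.92%). With one more fixed base, GAAA-NN-GAAAC, a subset of the first motif, 12 of the 24 (50%) held it, against 295 of all promoters (0.881%). Mx1, Oasl, Irf9, Stat2, Herc6, Parp9, Cmpk2 and Trim25 held no match in this window. A match describes letters only. The upstream 250 bases are printed for Lgals3bp and Bst2, the pair of members with the smallest adjusted p-values in the comparisons below. Capitals mark the core.
Lgals3bp, minus strand of chr10:104127849-104128098: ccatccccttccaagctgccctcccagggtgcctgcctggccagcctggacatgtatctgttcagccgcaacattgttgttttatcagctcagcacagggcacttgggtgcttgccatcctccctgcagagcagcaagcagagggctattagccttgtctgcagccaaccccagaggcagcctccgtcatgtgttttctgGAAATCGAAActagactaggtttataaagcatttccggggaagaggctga
Bst2, minus strand of chr16:18254968-18255217: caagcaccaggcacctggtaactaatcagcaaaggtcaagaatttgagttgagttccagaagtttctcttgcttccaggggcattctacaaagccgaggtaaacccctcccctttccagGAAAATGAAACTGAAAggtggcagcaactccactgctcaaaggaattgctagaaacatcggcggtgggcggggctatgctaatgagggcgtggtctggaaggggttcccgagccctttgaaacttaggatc

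Lgals3bp held a single copy, from 50 to 41 bases before the start. Bst2 held a pair of overlapping copies from 131 to 116 bases before it. The 6 members with a match whose levels varied most closely with the other members across animals are printed below with 7 bases on each side, chosen after the matches were seen. Each is read on the strand that holds the core, which capitals mark.
Parp14, plus strand of chr11:78408051-78408074: aggaaatGAAAGTGAAAgaagtaa
Irf7, plus strand of chr1:205800076-205800099: gtctcggGAAAATGAAAcctaaac
Ifih1, minus strand of chr3:67684011-67684034: gagaatcGAAACAGAAAccgatgt
Oasl2, plus strand of chr12:47383320-47383343: aagcctgGAAACTGAAAccaaagc
Oas1a, plus strand of chr12:41330418-41330441: ctctcggGAAATGGAAActgaaaa
Ifi44, plus strand of chr2:243303850-243303873: gggaaatGAAACTGAAActcagtg

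In Irf7, Oasl2 and Ifi44 the core lies on the strand opposite to the gene. In Oas1a a second copy overlaps the one shown, and Ifi44 holds another after its start.

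**Figure D1:**
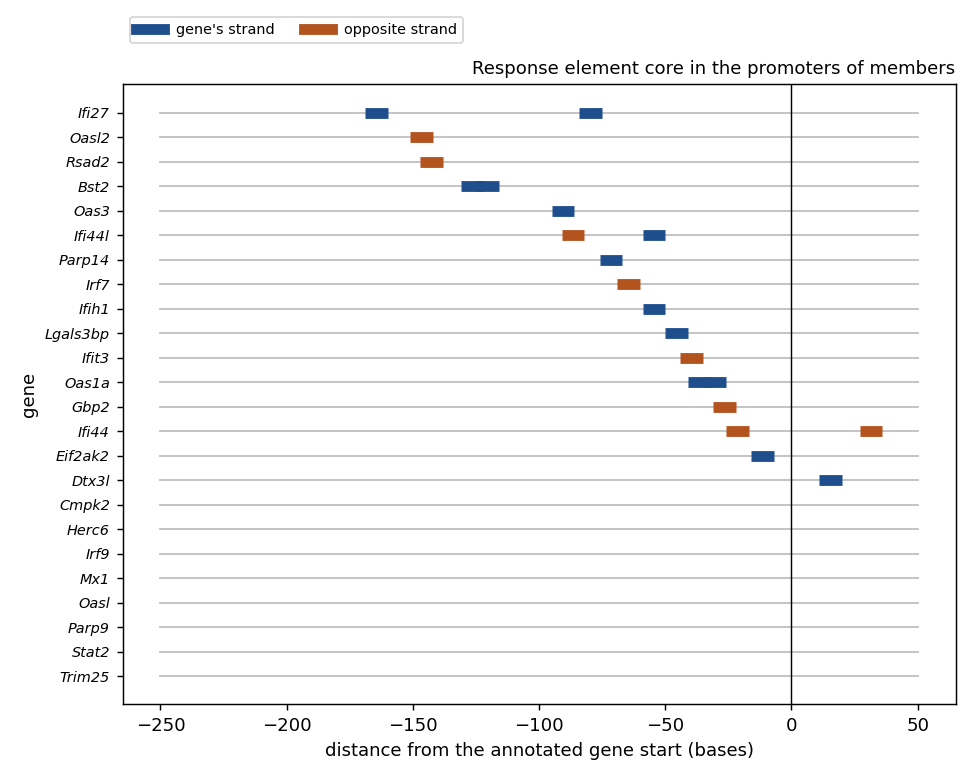
Position of the core GAAA-NN-GAAA in the 24 member promoters matched, in bases from the annotated gene start, with colour for the strand. Of the 16 with a copy, all but Dtx3l have at least 1 before the start, and Dtx3l has its copy from 11 to 20 bases after it.

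The libraries held 1042336 to 2397971 counts at day 1, 3471134 to 6279763 at day 7 and 3761631 to 6520180 at day 27, apart from 3 libraries of the 1000 ug/m3 groups with 105453 (animal 037, day 7), 439393 (animal 024, day 27) and 149004 (animal 045, day 27). Day 1 and its lower depth cannot be told apart where it is compared with later days, while the depths at days 7 and 27 overlapped. No pair of libraries within a group was identical (180 pairs), and lung was recognisable from all 9 alveolar type II markers, which passed the filter at every day. After removal of low-count genes 32 members were tested at day 1, 33 at day 7 and 34 at day 27; Ifit1 and Oas3 did not pass at day 1, nor Ifit1 at day 7. Levels are counts per 1000000 (CPM) after TMM scaling, and they are not compared between genes because they are not per length. Differences are log2 values from edgeR's quasi-likelihood test, given with their standard error, and p-values were adjusted over all genes tested with a threshold of 0.05. The labels give separate animals, so the spread is that between animals.

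The members rose and fell together from animal to animal. After each group's mean was removed, the log2 CPM of a member correlated with the mean of the other members with a median Pearson r of 0.648 over the 72 animals, and 28 of 34 members (82.4%) lay above 0.5. Among the 14922 other genes tested, the median r with the member mean was 0.103, and 49 of them (0.328%) lay above 0.5. Of the 561 pairs of members, 548 (97.7%) correlated above 0, with a median r of 0.449, against 54.8% and a median of 0.0306 for pairs among every 10th gene tested. The values of an animal all come from a single library and share its depth and composition, so these correlations are a description.

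Parp14, an ADP-ribosyltransferase, had the closest relation (r = 0.885), followed by the GTPase Mx2 (0.874), the Isg15 protease Usp18 (0.847), Isg15 itself (0.835) and Irf7 (0.828). The closest pair was Isg15 and Irf7 (0.849). Ifit1, an RNA-binding protein with 1.34 CPM on average and no count in 7 libraries, had the weakest relation (0.173). Stat2 (0.349), Ddx58, which encodes the sensor RIG-I (0.373), Bst2 (0.395), Oasl (0.441) and Zbp1, a sensor of Z-form nucleic acid (0.476), also stayed below 0.5. Without the 3 shallow libraries the value for Ddx58 was 0.656 and that for Oasl 0.618, and that for Bst2 0.223. Bst2, or tetherin, which holds budding virions at the cell surface, was closest to the ubiquitin ligase Trim25 (0.563) over all 72 animals. This value includes the shallow libraries of animals 037 and 024, each the lowest of its group for both genes. It is not given without them.

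**Figure D2:**
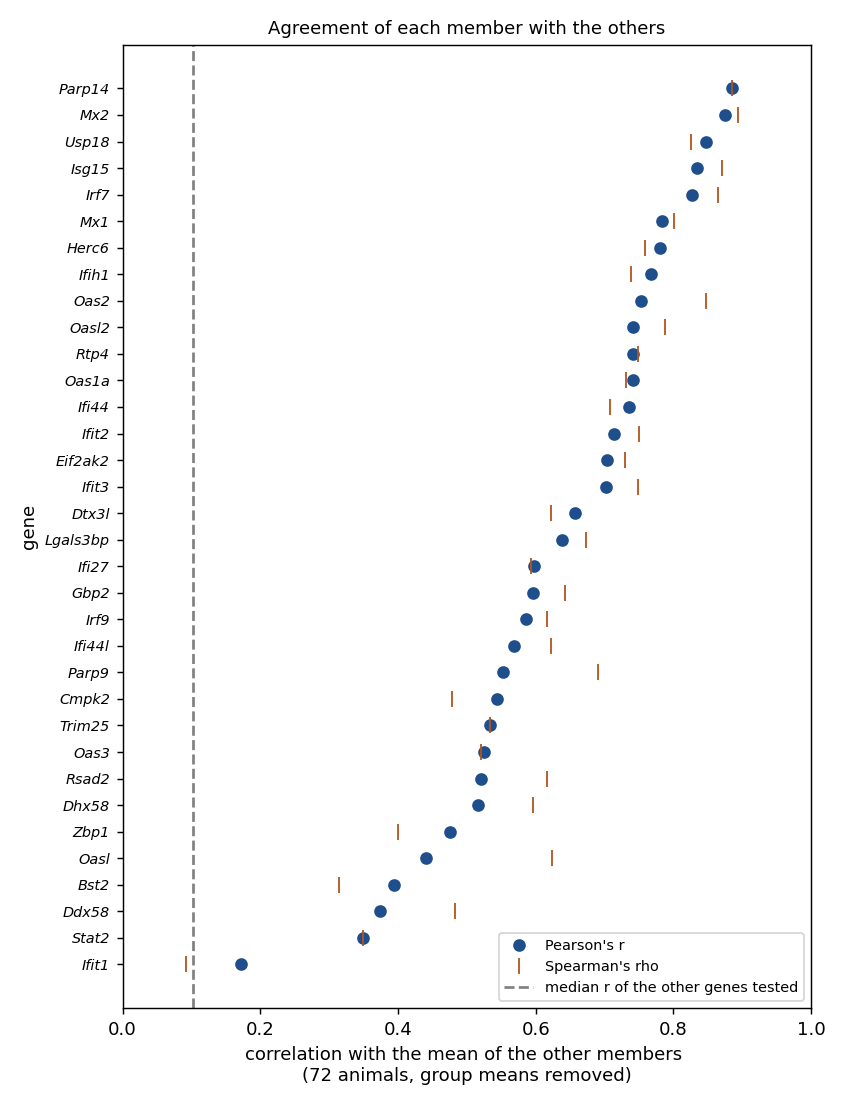
Correlation of each of the 34 members with the mean of the other members over 72 animals, after group means were removed (dots, Pearson's r; ticks, Spearman's rho), with the median r of all other genes tested as a dashed line. Parp14 stands highest at 0.885 and Ifit1 lowest at 0.173.

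Among genes outside the set, the 8 whose levels varied most closely with the member mean over the same 72 animals were Rnf213 (Pearson r = 0.931), Znfx1 (0.877), Slfn2 (0.801), Slfn3 (0.791), Oas1b (0.788), Trafd1 (0.768), Uba7 (0.759) and Lgals9 (0.754). Uba7 is the activating enzyme for Isg15, Znfx1 a helicase-family RNA sensor, Oas1b a relative of Oas1a, and Lgals9 encodes galectin-9.

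The same animal often stood at the edge of its group for many members. In air H at day 27, animal 020 had the lowest value for 25 of 34 members. Animal 068 of air L at day 7 was lowest for 23, animal 092 of the 200 ug/m3 group at day 27 for 23, and animals 002 (air H) and 030 (1000 ug/m3) at day 1 for 22 each. Animal 012 of air H and animal 015 of the 1000 ug/m3 group, both at day 7, were highest for 23 members, and animal 073 of the 200 ug/m3 group at day 7 for 21. The most frequent lowest animal was not always low throughout: animal 060 of the 200 ug/m3 group at day 1 was lowest for 12 members and highest for 7.

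A score summarised the set for each animal, as the mean over the 34 members of log2 CPM minus that gene's mean over the 72 libraries. Air L at day 1 had the highest group mean, 0.37 ± 0.23 (SD, n = 6), with animals from 0.10 to 0.67 around a median of 0.39. Air H at day 1 ranged from -0.33 to 0.28 around 0.03, the 1000 ug/m3 group from -0.27 to 0.36 around 0.17, and the 200 ug/m3 group from -0.00 to 0.25 around 0.08. At day 1 the air L group thus stood above the other groups on average, and its range overlapped theirs. No p-value is given for the score, because the members were chosen with results of these data known.

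At day 7 the 200 ug/m3 group had the lowest mean of all groups, -0.22 ± 0.20 (SD, n = 6), with animals from -0.46 to 0.09 around -0.20. Air L ranged from -0.20 to 0.35 around 0.23, air H from -0.24 to 0.29 around -0.05, and the 1000 ug/m3 group from -0.75 to 0.35 around -0.15. The lowest value, -0.75, was that of animal 037, a shallow library. At day 27 the group means were -0.09 ± 0.24 (SD, n = 6) for air H, -0.17 ± 0.23 for 1000 ug/m3, -0.00 ± 0.18 for air L and -0.15 ± 0.22 for 200 ug/m3, and all groups overlapped.

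**Figure D3:**
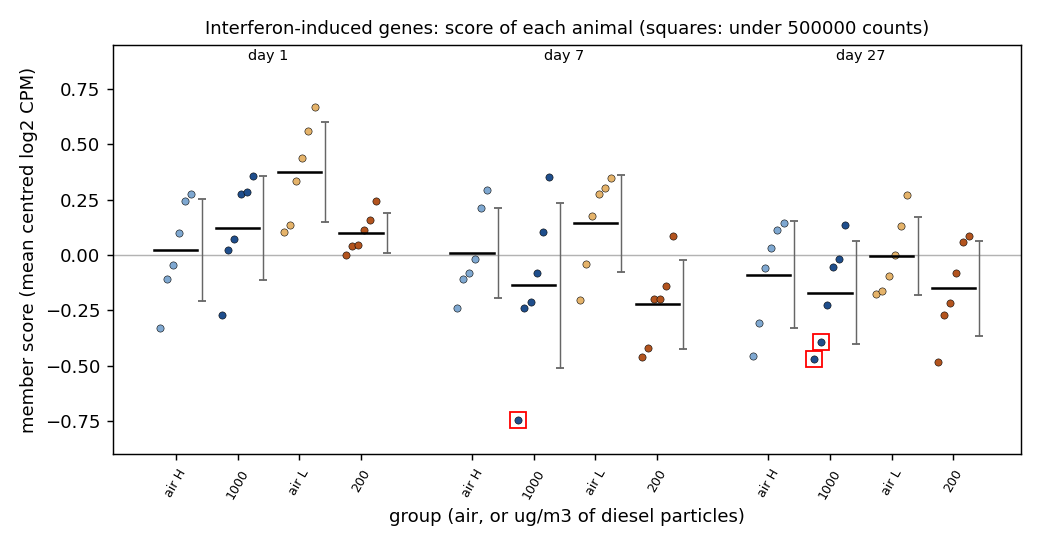
Member score (mean centred log2 CPM, y axis) of each of the 72 animals by group and day, with the group mean and SD (n = 6) and squares for the 3 libraries under 500000 counts. Air L at day 1 lies highest and the 200 ug/m3 group at day 7 lowest on average, and each exposed group overlaps its air group.

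No member passed the threshold in any of the 6 comparisons of an exposed group with its own air group. The share of all genes called was 0% at 1000 ug/m3 on each of the 3 days, 0% at 200 ug/m3 at days 1 and 27, and 0.00698% at 200 ug/m3 at day 7. DESeq2 and limma-voom called no member either. At an unadjusted p under 0.05, 1 of 32 members stood at 1000 ug/m3 at day 1 (3.41% of all genes), 0 of 33 at day 7 (4.39%) and 0 of 34 at day 27 (7%). At 200 ug/m3 the numbers were 15 of 32 at day 1 (6.02%), 22 of 33 at day 7 (5.71%) and 1 of 34 at day 27 (9.69%), all with lower values after exposure. Because members vary together among animals, these counts are not independent observations.

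At 1000 ug/m3 and day 1 the members' median log2 difference was 0.15, with 26 of 32 above 0, where 49.7% of all genes were. The smallest p was that of Cmpk2, a mitochondrial nucleotide kinase, at 0.32 ± 0.15 (SE; edgeR adjusted p = 0.99966). Cmpk2 ran from 19.7 to 35.9 CPM (median 27.6) in air H and from 31.3 to 39.9 (median 33.1) after 1000 ug/m3, so the groups overlapped. All 32 members had a 95% interval inside a 2-fold change in either direction. At day 7 the median was -0.02, and Ifih1, the RNA sensor MDA5, had the smallest p at -0.17 ± 0.09 (SE; edgeR adjusted p = 0.99997). At day 27 it was 0.04, with Ifit2 at -0.17 ± 0.10 (SE; edgeR adjusted p = 0.752). On both days 33 members had intervals inside a 2-fold change, of 33 and 34 tested. Without the shallow libraries the score difference at 1000 ug/m3 was -0.025 instead of -0.147 at day 7 and 0.048 instead of -0.082 at day 27. The animal numbers of the H groups fall into 2 series, with 4 air animals of each day in the first and 2 in the second, and as many exposed animals. The score difference within them was 0.163 and -0.025 at day 1, -0.060 and -0.320 at day 7, and -0.037 and -0.171 at day 27. Without the shallow libraries it was -0.060 and -0.053 at day 7, and 0.085 and -0.087 at day 27, with 1 exposed animal left in the second series on both days.

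At 200 ug/m3 the members' values were mostly below those of air L. At day 1 the median log2 difference was -0.32 and 29 of 32 members lay below 0, where 50.2% of all genes did. The GTPase Mx1 had every exposed animal (102 to 135 CPM, median 115) below every air L animal (145 to 253, median 171), the only member so separated, as were 0.203% of all genes; its difference was -0.69 ± 0.20 (SE; edgeR adjusted p = 0.627). Isg15 had the smallest p, at -0.73 ± 0.20 (SE; edgeR adjusted p = 0.627), with 14.1 to 27.1 CPM (median 22.4) after exposure and 22.2 to 55.2 (median 35.5) in air L.

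At day 7 the median was -0.39 and 32 of 33 members lay below 0, where 49.5% of all genes did. Lgals3bp, a secreted glycoprotein that binds galectins, had the smallest p at -0.42 ± 0.10 (SE; edgeR adjusted p = 0.40). It ran from 79.9 to 128 CPM (median 106) after exposure and from 109 to 152 (median 139.5) in air L. Oas2, which makes the 2-5A signal for RNA decay, stood at -0.89 ± 0.23 (SE; edgeR adjusted p = 0.42), with 13 to 25.3 CPM (median 16.2) after exposure and 20.6 to 39.1 (median 35.3) in air L. Irf9, the DNA-binding partner of STAT2, ran from 66.2 to 84.9 CPM (median 77.8) after exposure and from 80.3 to 109 (median 99.0) in air L, a difference of -0.33 ± 0.09 (SE; edgeR adjusted p = 0.40). These groups lay lower after exposure and overlapped with air L. No member was separated. On day 1 and on day 7, 0 of 6 exposed animals had a score above the air L median.

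At day 27 the members' median at 200 ug/m3 was -0.14, with 30 of 34 below 0, where 49.7% of all genes were. Stat2 had the smallest p at -0.17 ± 0.08 (SE; edgeR adjusted p = 0.494). Intervals of 33 of the 34 lay inside a 2-fold change. Over all 6 exposed groups in a fit of the 72 libraries, the median was -0.11, 32 of 34 members lay below 0 and none was called (0.0134% of all genes). In that fit 53.8% of all genes lay below 0 and 16 members had an unadjusted p under 0.05 (5.06% of all genes). Parp14 had the smallest p at -0.11 ± 0.04 (SE; edgeR adjusted p = 0.765). The interval of every member lay inside a 2-fold change.

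**Figure D4:**
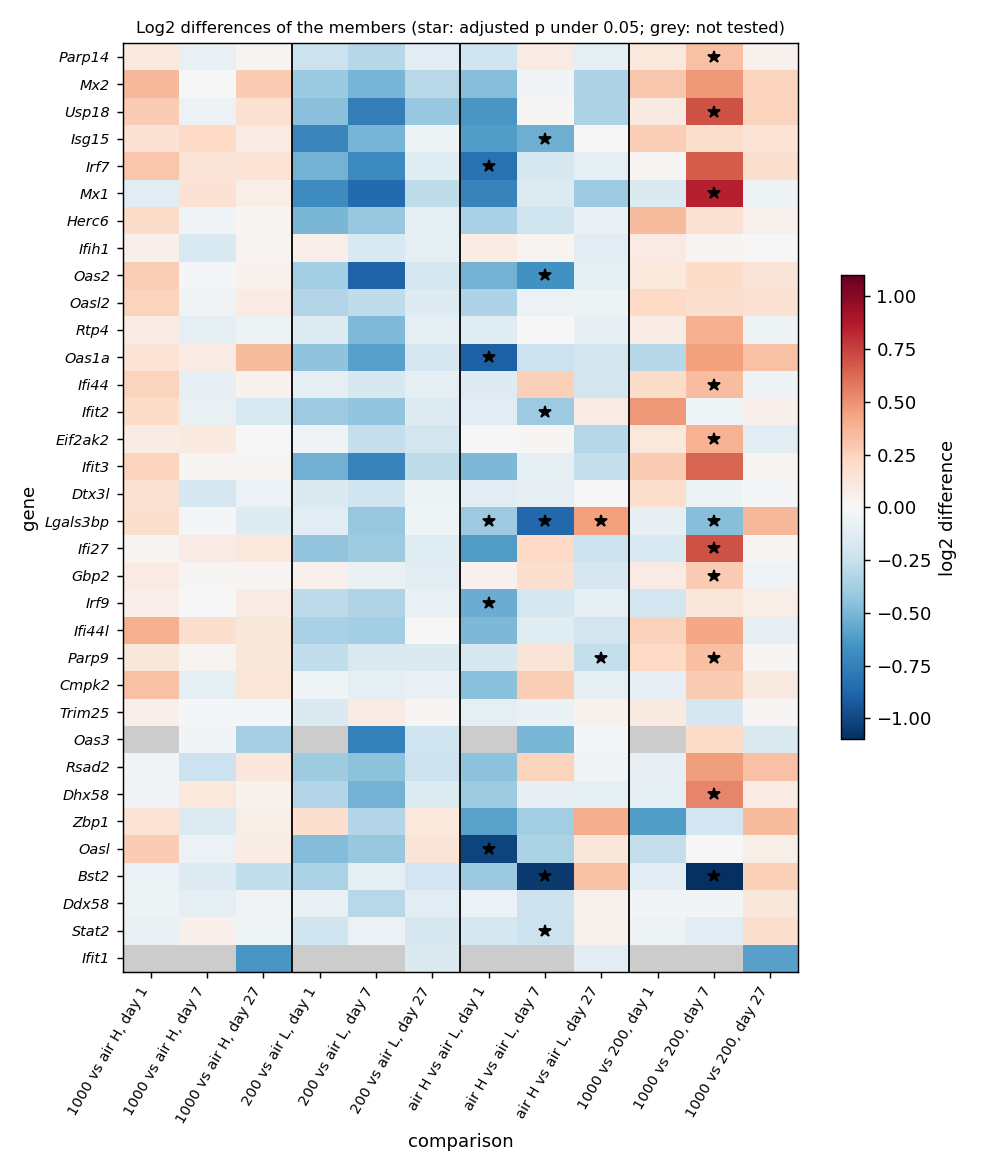
Log2 differences of the members (y axis) in each comparison (x axis), coloured from lower to higher, with a star for an edgeR adjusted p under 0.05 and grey for members not tested. The columns for exposure hold no star, and those for the comparison of the air groups hold 5, 6 and 2.

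The air groups themselves differed. At day 1, 5 of 32 members were lower in air H than in air L and none was higher, where 0.853% of all genes were lower and 1.68% were called in either direction. Of the 32, 30 lay below 0, where 50.3% of all genes did, with a median of -0.40. The 5 were Irf9, Irf7, Oasl, Oas1a and Lgals3bp. The comparison of 200 ug/m3 with air L uses the same air L animals, and that of 1000 ug/m3 with air H the same air H animals. Samples of bulk lung do not separate fewer cells of a type from less RNA per cell.

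Irf9 ran from 64.6 to 90.35 CPM (median 84.6) in air H and from 97.8 to 135 (median 121) in air L. The groups did not overlap, and the difference was -0.55 ± 0.10 (SE; edgeR adjusted p = 0.012). Usp18 was separated too (21.5 to 33.4 against 33.7 to 64.5 CPM) without passing the threshold, and 0.691% of all genes had all air H animals below all air L animals. Irf7 ran from 35.1 to 98.6 CPM (median 64.9) in air H and from 90.9 to 157 (median 111) in air L, with a difference of -0.82 ± 0.21 (SE; edgeR adjusted p = 0.048).

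Of the 4 OAS members tested at day 1, Oasl, a non-catalytic relative, ran from 7.65 to 10.2 CPM (median 8.65) in air H and from 9.25 to 26.4 (median 16.5) in air L, a difference of -1.02 ± 0.21 (SE; edgeR adjusted p = 0.020). Oas1a ran from 9.23 to 14.9 CPM (median 10.8) and from 12.9 to 27.2 (median 22.8), a difference of -0.90 ± 0.20 (SE; edgeR adjusted p = 0.027). Lgals3bp ran from 97.2 to 151 CPM (median 129.9) and from 145 to 188 (median 163), a difference of -0.40 ± 0.10 (SE; edgeR adjusted p = 0.041). In all 3 genes the groups overlapped at the edge. The count of 5 rested on single animals: it was 1 without air H animal 002 or 004 or without air L animal 049, 050 or 052, 2 without 026 or 051, 8 without 054 and 10 without 053. Irf9 passed in each of these and in every other alternative tried.

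At day 7, 6 of 33 members were lower in air H and none higher, where 15.2% of all genes were lower and 25.5% were called in either direction. The members' median was -0.11, with 22 below 0, where 47.5% of all genes were. Lgals3bp ran from 61 to 85.4 CPM (median 77.5) in air H and from 109 to 152 (median 139.5) in air L, a difference of -0.87 ± 0.10 (SE; edgeR adjusted p = 3.6e-07). Bst2 ran from 15.1 to 32.3 CPM (median 26.6) and from 47.7 to 65.3 (median 50.6), a difference of -1.06 ± 0.19 (SE; edgeR adjusted p = 0.00014). Neither gene overlapped, and 9.55% of all genes were separated in that direction.

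The other 4 at day 7 were Isg15 at -0.54 ± 0.18 (SE), Oas2 at -0.66 ± 0.23, the RNA-binding Ifit2 at -0.40 ± 0.14 and Stat2 at -0.23 ± 0.09, with edgeR adjusted p-values from 0.029 to 0.043. Isg15 ran from 11.1 to 25 CPM (median 19.2) in air H and from 18.0 to 34.6 (median 30.1) in air L, and Stat2 from 87 to 126 (median 107) and from 108 to 138 (median 128). Oas2 ran from 13.9 to 26.1 CPM (median 19.4) in air H and from 20.6 to 39.1 (median 35.3) in air L, and Ifit2 from 48.5 to 75.6 (median 66.7) and from 56.8 to 108 (median 88). In all 4 genes the air H median lay below the air L median and the groups overlapped. The count was 2 without air H animal 011 or 034 or air L animal 065, 069 or 070, and 3 without 066. With the number series as a block 2 were lower and 1 higher. Lgals3bp and Bst2 passed in every alternative tried.

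At day 27 the direction of Lgals3bp was the other way: air H ran from 88.4 to 113 CPM (median 103) and air L from 62.4 to 94.2 (median 69.7), a difference of 0.45 ± 0.12 (SE; edgeR adjusted p = 0.012). Parp9, which forms a complex with the ligase Dtx3l, was lower in air H, from 108 to 131 CPM (median 117) against 122 to 164 (median 141), at -0.26 ± 0.08 (SE; edgeR adjusted p = 0.025). These 2 of 34 members compare with 14% of all genes called (8.92% higher, 5.11% lower). Leaving out any of the animals 017, 020, 041, 081 or 085 removed the Parp9 call, and so did the number series as a block (edgeR adjusted p = 0.053). Bst2 at day 27 was 0.32 ± 0.15 (SE; edgeR adjusted p = 0.168).

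**Figure D5:**
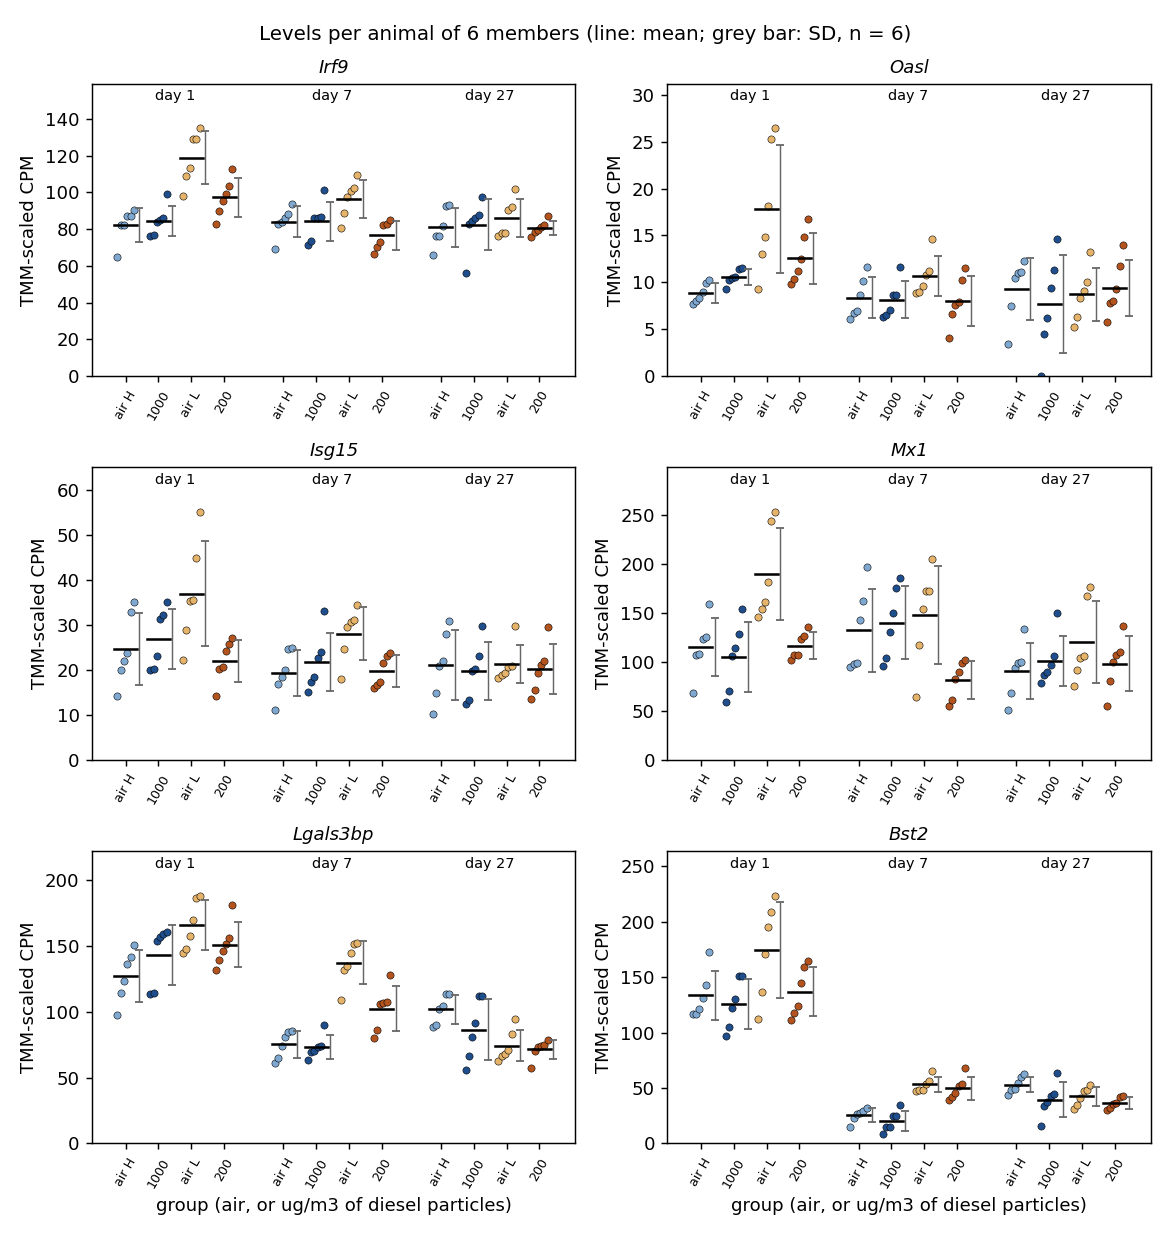
TMM-scaled CPM per animal (y axes start at 0) of 6 members in the 12 groups, with the mean as a line and the SD (n = 6) as a grey bar. Lgals3bp and Bst2 separate air H from air L at day 7, Irf9 does so at day 1, and Bst2 is far lower at days 7 and 27 than at day 1.

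Cell type markers also differed between the air groups. At day 1, Tie1 (-0.52 ± 0.11, SE) and Nkx2-1 (-0.51 ± 0.11) were lower and Tek (0.28 ± 0.07) higher in air H, of 8 endothelial and 9 type II pneumocyte markers tested. At day 7, 5 of 7 type I pneumocyte markers were lower and 1 higher, 4 of 9 type II markers were lower, and of the endothelial markers Kdr (-1.1 ± 0.08) and Cdh5 (-0.60 ± 0.09) were lower and Cldn5 (0.49 ± 0.08) higher. The neutrophil markers S100a8 (1.05 ± 0.29) and S100a9 (0.87 ± 0.29), from a list of 8, were higher. Summed over that list, levels ran from 88.4 to 304 CPM in air H (median 136). In air L they ran from 86.6 to 127 CPM (median 105), so the groups overlapped. Bst2 is also a marker of plasmacytoid dendritic cells, a main source of type I interferon. Of the 6 markers of that list tested at day 7, Bst2, Runx2 (-0.49 ± 0.16) and Spib (-0.41 ± 0.13) were lower, while Siglech was at 0.53 ± 0.29 and Ccr9 at 0.68 ± 0.26, neither past the threshold. The summed level of the list ran from 143 to 180.1 CPM in air H and from 183 to 220.4 CPM in air L at day 7. Without Bst2, the sum of the other 7 ran from 124 to 148 CPM in air H (median 127) and from 136 to 164 CPM in air L (median 148), and the groups overlapped. No marker of the list was at 0 in every library. Whether these cells had a part in the member differences was not tested.

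The groups exposed to 1000 and 200 ug/m3 differ in letter as well as in concentration, which cannot be told apart. At day 1 no member was called between them (0% of all genes), nor at day 27 (0%). At day 7, 9 of 33 members were higher at 1000 ug/m3 and 2 were lower, where 11.7% of all genes were higher and 16.2% lower. The members' median was 0.28, with 24 above 0, where 51.4% of all genes were.

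Among the 9, Ifi27, a mitochondrial and nuclear-envelope protein, ran from 251 to 578 CPM (median 359.8) at 1000 ug/m3 and from 177 to 280.2 (median 254) at 200 ug/m3, a difference of 0.70 ± 0.14 (SE; edgeR adjusted p = 0.00067). The 251 is that of animal 037, from 29 counts, and the lowest of the other 5 was 308 CPM. Eif2ak2, the RNA-activated kinase PKR, differed by 0.38 ± 0.09 (SE), the RIG-I relative Dhx58 by 0.54 ± 0.14 and Parp14 by 0.32 ± 0.08, with edgeR adjusted p-values of 0.0018, 0.0030 and 0.0040. Every animal at 1000 ug/m3 had more Dhx58 (27.5 to 43.3 CPM) than every animal at 200 ug/m3 (17.8 to 27.4), as was the case for 2.54% of all genes; the highest value is that of animal 037, from 5 counts, and the next was 40.6 CPM. Parp9, Mx1, Gbp2, Usp18 and Ifi44 were also higher, by 0.28 to 0.86.

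The members that were lower at 1000 ug/m3 were Bst2, at -1.1 ± 0.20 (SE; edgeR adjusted p = 0.00016), and Lgals3bp, at -0.47 ± 0.11 (SE; edgeR adjusted p = 0.0020). Bst2 ran from 8.66 to 34.6 CPM (median 19.7) at 1000 ug/m3 and from 38.9 to 67.9 (median 48.4) at 200 ug/m3 without overlap, as 7.76% of all genes did. The 8.66 is that of animal 037, the shallow library, with 1 count of Bst2; the other 5 animals ran from 14.96 to 34.6 CPM (median 24.3). Both genes were also lower in air H than in air L on that day. No member higher at 1000 ug/m3 was called between these air groups, and their air levels differed both ways. Ifi27 ran from 314 to 441 CPM in air H and from 264 to 363 in air L. Mx1 ran from 95.1 to 197 CPM (median 121) in air H and from 64 to 205 (median 163) in air L. Without animal 015, which was highest for 23 members, 5 members were higher in place of 9, and with the number series as a block 14 were. Markers differed here as well, where 16.2% of all genes were lower and 11.7% higher. Of 7 type I pneumocyte markers, 4 were lower and 2 higher, and 3 of 6 plasmacytoid dendritic markers were lower, Bst2 among them. Without Bst2, the sum of the other 7 of that list ran from 117 to 167 CPM (median 131) at 1000 ug/m3. At 200 ug/m3 it ran from 153 to 202 CPM (median 158), so the groups overlapped. The part of these markers in the result was not tested.

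The difference between the effect of 1000 ug/m3 against air H and that of 200 ug/m3 against air L was tested directly as an interaction. No member passed on any day (0.00813%, 0% and 0% of all genes at days 1, 7 and 27), nor under DESeq2 or limma-voom. At an unadjusted p under 0.05, 13, 11 and 2 members stood on those days, against 4.36%, 5.21% and 13.3% of all genes. The medians of the members were 0.36, 0.35 and 0.15. Parp9 had the smallest p at day 1, 0.40 ± 0.12 (SE; edgeR adjusted p = 0.998), Dhx58 at day 7, 0.63 ± 0.19 (SE; edgeR adjusted p = 0.849), and Parp9 at day 27, 0.28 ± 0.12 (SE; edgeR adjusted p = 0.306). At day 1 the 1000 ug/m3 group had a median of 0.15 against air H, the 200 ug/m3 group -0.32 against air L, and air H -0.40 against air L; these comparisons share air groups.

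In the air animals, taken as the mean of air H and air L, several members were lower at the later days, when depth was also greater. From day 1 to day 7, 7 of 34 members fell and none rose (17.6% of all genes lower, 33.2% called in either direction). The set as a whole moved little: its median was -0.04, with 18 members below 0 and 16 above, where 48% of all genes lay below 0. Bst2 fell most, by 2.05 ± 0.12 on the log2 scale (SE; edgeR adjusted p = 2.9e-21), the mean over air H and air L. In air H it went from 116 to 173 CPM at day 1 to 15.1 to 32.3 CPM at day 7, and in air L from 113 to 224 CPM to 47.7 to 65.3 CPM, so the days did not overlap for either letter. Lgals3bp (-0.51 ± 0.08), Trim25 (-0.45 ± 0.07), Dtx3l (-0.26 ± 0.08), Oasl2 (-0.38 ± 0.12), Stat2 (-0.21 ± 0.07) and Herc6, a ligase for Isg15 in rodents (-0.32 ± 0.12), were also lower. Among the markers, 3 of 6 tested for plasmacytoid dendritic cells (Bst2, Tcf4 and Runx2) were lower and 3 of 9 for natural killer cells (Gzma, Klrb1a and Nkg7) higher at day 7. The summed club cell list had a median of 3565 CPM at day 1 and 1595 CPM at day 7 in air H, and of 3648 and 2429.7 CPM in air L. Their part in the result was not tested. Over all 12 groups, exposed ones included, the highest Bst2 group mean was 8.58 times the lowest, against 1.23 times for Ifih1. For Bst2 these were air L at day 1 (175 CPM) and 1000 ug/m3 at day 7 (20.3 CPM), which differ in day, letter and exposure. The lower mean includes animal 037, a shallow library with 1 count of Bst2.

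From day 1 to day 27, 15 of 34 members fell and none rose (16.9% of all genes lower, 31.8% called in either direction). Bst2 (-1.68 ± 0.12), Lgals3bp (-0.73 ± 0.08) and Irf7 (-0.62 ± 0.17) fell most. All 3 factors, Irf7, Irf9 (-0.24 ± 0.06) and Stat2 (-0.22 ± 0.07), were lower. Among the markers, 6 of 9 of natural killer cells were higher at day 27. Lower were 4 of 5 of erythroid cells and 3 of 6 of plasmacytoid dendritic cells, Bst2 among them. Other lists moved too. The summed fibroblast list had a median of 4736 CPM at day 1 and 3663 at day 27 in air H, and 4990 and 3204 in air L. For the summed type II pneumocyte list these medians were 14482 and 16761 CPM, and 14548 and 17271. The part of these markers was not tested. Between days 7 and 27, Bst2 was higher at day 27 (0.36 ± 0.12) and Rsad2 (-0.43 ± 0.12), Dhx58 (-0.25 ± 0.08) and Irf7 (-0.46 ± 0.15) were lower, where 9.39% of all genes were called. Of 9 alternatives, Dhx58 lost its call in 6, Irf7 in 5 and Bst2 in 1. The antiviral enzyme Rsad2, or viperin, makes a chain-terminating nucleotide.

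The rest of the interferon pathway was read from lists of genes outside the set. None of the 12 interferon genes of the ligand list passed the filter on low counts; Ifnb1 had no count in any library. No gene of the lists of receptors (6 tested), kinases and factors (10), nucleic acid sensors (8 to 10), negative regulators (8), other antiviral effectors (19) or interferon-gamma targets (10 to 13) was called with exposure. In the comparison at 200 ug/m3 and day 7 Pml of the other effectors stood at -0.30 ± 0.09 (SE; edgeR adjusted p = 0.421).

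Between the air groups at day 1, the interferon-gamma targets Psmb10, an immunoproteasome subunit (-0.97 ± 0.17, SE; edgeR adjusted p = 0.012), and Tap1, a peptide transporter (-0.67 ± 0.14; 0.024), were lower in air H, and no gene of the other lists was called. Of all genes, 1.68% were called in either direction at day 1. At day 7 the receptor chains Ifngr1 (-0.54 ± 0.09) and Ifnlr1 (-0.84 ± 0.17) were lower and Ifngr2 (0.24 ± 0.08) higher in air H. The factors Irf8 (-0.61 ± 0.11) and Irf2 (-0.49 ± 0.10) and the adaptors Tmem173, or STING (-1.41 ± 0.18), and Ticam1 (-0.59 ± 0.15) were lower. Of 19 other effectors, 6 were lower and 1 higher, Pml (-0.71 ± 0.09) and Ifitm3 (-0.57 ± 0.09) among the lower. On that day 15.2% of all genes were lower and 10.3% higher. At day 27 Pml (0.43 ± 0.10), Ifitm3 (0.33 ± 0.09), Ifngr1 (0.29 ± 0.06) and Tmem173 (0.56 ± 0.16) were higher in air H, where 8.92% of all genes were higher and 5.11% lower. The number called per list on that day is not given here, so these genes do not describe a list as a whole.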

How the data were processed

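RNA from lung of 72 rats was sequenced after ribosomal RNA depletion with a stranded kit, per the labels' protocols. The deposited table holds whole-number read counts per gene for every animal. Tools given without their roles, per the submitters' processing notes, are HTSeq 0.6.1, SAMtools 1.8, HISAT2 2.1.0, Trimmomatic 0.35 and bcl2fastq 2.19, with build Rnor_6.0. Annotation and strand setting: not given in the sources used here. Without the latter, reads of overlapping genes may be split between them.

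Counts were tested with edgeR 4.0.16 (R 4.3.3): filterByExpr by group, TMM factors, robust quasi-likelihood fits of the 24 libraries of a day, or of all 72 for pooled exposure and time, and Benjamini-Hochberg adjustment over all genes tested (12304, 14331 and 14761 at days 1, 7 and 27, 14956 in the fit of 72). DESeq2 1.42.0 and limma 3.58.1 were alternatives. The standard error was derived from the F statistic. Scores and correlations use log2 CPM with a prior count of 2. The fits were also run on simulated data with planted differences. The outcome is not given here, so it does not say how small a difference would be found. Members with an adjusted p under 0.05 in an exposure, air group or dose comparison, up to 10, have their levels given per group (others named in the text were added after their values were seen); of other comparisons up to 6 members, and of pathway lists up to 3, or the one with the smallest p. The members and gene lists were chosen with earlier results of these data known. Some listed genes are not reported here.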

Additional observations from a re-analysis of the deposited data

Results flagged for a closer look

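In groups of 6, 132 sets of levels were searched for an animal far from the others, and chance gives about 1 in 20. The flags in this paragraph are no more than that rate gives. Irf9 in air H at day 1 was 64.58 CPM in animal 002, while the other animals ran from 82.03 to 90.35. In the 1000 ug/m3 group at day 27, Irf9 was 55.84 CPM in animal 024, a library of 439393 counts, against 82.82 to 97.26 in the others, and Parp9 was 62.44 CPM in animal 045, a library of 149004 counts, against 118.9 to 144.8. Oas1a was 7.866 CPM in animal 074 of the 200 ug/m3 group at day 7, against 11.85 to 13.33. Isg15 was 29.81 CPM in animal 081 of air L at day 27, against 18.21 to 20.91. Stat2 was 79.35 CPM in animal 092 of the 200 ug/m3 group at day 27, against 96.51 to 106.4; this animal was also lowest for 23 of the 34 members.

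Lgals3bp and Bst2 changed direction between days in the comparison of the air groups: every air H animal lay below the air L mean at days 1 and 7 and above it at day 27. For Lgals3bp the log2 differences, air H minus air L, were -0.40 at day 1, -0.87 at day 7 and 0.45 at day 27. For Bst2 they were -0.41, -1.06 and 0.32, of which only that of day 7 passed the threshold. The difference between days was not tested.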

How the results depend on the processing

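The alternatives were other scaling factors (RLE, none), other filters (1 CPM in 6 libraries, none), DESeq2, limma-voom, non-robust dispersions, fits of all 72 or of only the 12 libraries compared, the number series as a block, leaving out each animal, and, chosen after seeing the data, leaving out the 3 shallow libraries. No result changed direction past its threshold, and 0 members were called with exposure under all of them. For scores and medians that threshold was the SD of the score within groups, so small values could change sign without passing it. At 1000 ug/m3 and day 27 the score difference went from -0.082 to 0.048 without the shallow libraries, with an SD of 0.238. Numbers of members called differed from the reported number by over 1.5 times as follows. In air from day 7 to day 27, in place of 3 lower, 1 was lower with RLE factors, with either other filter, with DESeq2 and without the shallow libraries, and 5 with limma-voom; in place of 1 higher, 0 was higher without a filter. From day 1 to day 7, in place of 0 higher, 4 were higher without scaling and 1 with the CPM filter or limma-voom; from day 1 to day 27, 1 was higher without scaling. Between the air groups at day 7, 1 was higher with either other filter or the block, and 2 were lower without a filter or with the block. At day 27, 2 were higher in the fit of 12 libraries and 0 lower with the block. Between the exposed groups at day 7, 14 were higher with the block, in place of 9. The cause was not tested.

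Leaving out 1 animal gave 1 to 10 members lower between the air groups at day 1, 2 to 6 lower and 0 to 1 higher at day 7, and 0 to 2 lower and 1 to 2 higher at day 27. Between the exposed groups at day 7 it gave 5 to 12 higher and 2 to 3 lower. The median of the members at 1000 ug/m3 ran from -0.14 to 0.04 at day 7 and from -0.04 to 0.09 at day 27. Of the genes called between the air groups at day 1, Irf7 lost its call in 12 and Lgals3bp in 7 of 23 alternatives, and Oasl and Oas1a each in 6 of 22. At day 7 Stat2 lost it in 13, Ifit2 in 11, Oas2 in 10 and Isg15 in 9 of 23. The time comparisons and the pooled exposure were not refitted without single animals. Without the shallow libraries the score difference between the exposed groups was 0.208 in place of 0.086 at day 7 and 0.110 in place of -0.020 at day 27.

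No paired analysis was possible because each animal number in the titles belongs to a single group. Scores and medians were called the same when they moved by less than the SD of the score within groups, a wide band. Members at few counts, Ifit1 and Oas3 above all, and the day 1 libraries limit the precision. How reads were counted in near-identical OAS, IFIT and Mx genes was not tested.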
